A study of Caenorhabditis elegans with 4 samples.

Results

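Chromatin immunoprecipitation followed by sequencing (ChIP-seq) gave 327 called regions, or peaks, for the transcription factor CEH-16 on chromosome II of Caenorhabditis elegans. They are all rows of the combined peak list whose chromosome field is II, out of 1848 peaks on 6 chromosomes, so position alone chose them. The animals were L2 hermaphrodites of strain OP82, grown at 20 °C. The strain is an unc119(ed3) mutant that carries the transgene wgIs82, in which ceh-16::TY1 EGFP FLAG is joined with an unc119 marker. It was made by biolistic transformation, was not outcrossed, and has the tagged copy of ceh-16 besides its own. All 4 libraries came from it: 2 ChIP libraries made with anti-GFP antibodies (replicates 1 and 2) and 2 Input libraries from chromatin of the same lysates set aside before the pull-down. Each ChIP library has a peak list of its own beside the combined one, and the Input libraries' values were not analysed here. Whole animals were used, so the lists do not separate cell types, and which of the tagged protein's cells a peak comes from cannot be told apart.

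CEH-16 is the worm's Engrailed homologue, a homeodomain transcription factor best known from the seam cells, a row of epidermal cells along each side of the larva that divide in a stem-like manner and help to make the cuticle. In ChIP-seq, DNA crosslinked to the tagged protein is enriched, sequenced and compared with Input, and a caller such as PeakSeq reports the stretches with an excess of reads together with a q-value, the false discovery rate of the call. Autosomes of this species have a central domain of low recombination that is rich in genes, flanked by arms of higher recombination that are richer in repeats and in heterochromatin marks. Positions below are in the WS220 build. No gene was assigned to a peak and no sequence is shown, because the gene table at hand describes another build.

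Chromosome II held the second highest density of peaks of the 6 chromosomes in each list, below X. The combined list had 327 peaks there (17.7% of the list, exact binomial 95% interval 15.98 to 19.5%), replicate 1 had 191 (18.8%, 16.4 to 21.3%) and replicate 2 had 152 (19.4%, 16.7 to 22.3%). Over the span from first to last peak this was 21.5 peaks per Mb in the combined list, within a range of 12.2 to 24.5 over the chromosomes, 12.7 per Mb in replicate 1 and 10.1 per Mb in replicate 2. The combined peaks of II covered 171.3 kb, which is 1.12% of the span. The first began at 23990 (200 bp wide, q = 0.00575, called in neither replicate) and the last ended at 15263562 (571 bp, q = 9.01e-05, called in replicate 1 with q = 1.75e-05). Intervals here and below cover counting error of peaks alone. The read depth behind the lists is unknown, and since no label states that the replicates were grown separately, differences between them may be technical.

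The median q-value of the II peaks in the combined list, 7.42e-05, was the smallest of the 6 chromosomes, the other medians lying between 0.000144 and 0.000388. In the replicate lists it was the second smallest, at 0.00040 in replicate 1 and 0.000419 in replicate 2. The share of II among the strongest peaks lay on either side of its share of each list. In the combined list, with 17.7% of its peaks on II, II held 1 of the 10 strongest, 3 of the 20, 10 of the 50, 22 of the 100 and 30 of the 200 strongest. Of the 100 strongest it held 17 in replicate 1 and 19 in replicate 2, where its shares of the lists were 18.8% and 19.4%. Peaks of 1 list are not independent replicates and there is no second condition, so differences between chromosomes or parts of II are given as values without a test, and none is called particular to II.

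About 1 in 3 of the chromosome II peaks was called in both immunoprecipitations. A combined peak was taken to meet a replicate when it shared at least 1 bp with a peak of that replicate's list. By this rule 105 of the 327 met both replicates (32.1%, 27.1 to 37.5%), against 30.0% of all combined peaks. A further 77 met replicate 1 only (23.5%, against 21.8% of all combined peaks), 43 met replicate 2 only (13.1%, against 11.3%) and 102 met neither (31.2%, 26.2 to 36.5%, against 36.9%). On the other 5 chromosomes together the shares that met both and neither were 29.6% and 38.1%. From the replicates' side, 107 of the 191 replicate 1 peaks on II met replicate 2 (56.0%, against 55.8% of all replicate 1 peaks). Of the 152 replicate 2 peaks, 107 met replicate 1 (70.4%, against 72.4%). The interval on II held the share of the whole list for peaks that met both replicates and lay below it for peaks that met neither. X was close to II, with 35.5% that met both and 31.9% that met neither. On the other chromosomes the share that met neither ran from 31.9% on X to 52.2% on I.

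Which peaks met both replicates followed the strength of the call. Of the 82 peaks of II with the smallest q-values, 75 met both replicates and 0 met neither. Of the next 82, 28 met both, 29 met replicate 1 only, 22 replicate 2 only and 3 neither. Of the weakest 81, 0 met both and 65 met neither. The median combined q-value was 2.56e-10 for peaks met in both, 0.000120 for replicate 1 only, 6.73e-05 for replicate 2 only and 0.00290 for neither. The replicate lists have a q-value threshold of their own, so this order is a description of the calls and not an independent result.

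The strongest peak of II was also the strongest there in each replicate. It spans 6820927 to 6821615, in the central domain, and is 689 bp wide. The combined q-value was 7.93e-55, and replicates 1 and 2 gave 3.69e-25 and 4.69e-34. It ranked 4 of all 1848 combined peaks. It starts the longest run of peaks on the chromosome, described further on.

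The second strongest was wide and differed in extent between replicates. It runs from 11015275 to 11017348 (2074 bp, combined q = 4.51e-39). Replicate 1 called 1894 bp of it (q = 1.13e-24, rank 2 on II) and replicate 2 the right-hand 903 bp (q = 4.33e-12, rank 7). The third, from 7801783 to 7802314 (532 bp, combined q = 2.79e-30), was at rank 2 on II in replicate 2 (q = 1.17e-19) and at rank 8 in replicate 1 (q = 2.95e-12).

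The next strongest peaks included 1 in each arm. In the right arm, 12944456 to 12945122 (667 bp, combined q = 1.42e-27) had q = 2.56e-19 in replicate 1 and 7.34e-11 in replicate 2. In the left arm, 2436757 to 2437169 (413 bp, combined q = 1.12e-25) had nearly equal q-values in the replicates, 2.43e-12 in both, with starts 30 bp and ends 2 bp apart. It belongs to no run, and the next peak to its right is 5165 bp away. The peaks at 9644874 to 9645306 (433 bp) and 5735663 to 5736112 (450 bp), both in the centre, had combined q-values of 1.02e-25 and 2.39e-25. In replicate 1 their q-values were 8.37e-11 and 5.09e-14, and in replicate 2 they were 1.16e-14 and 8.51e-11.

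Among the 10 strongest that met both replicates, 7 were within the 20 strongest II peaks of each replicate, and the other 3 were so in 1 replicate alone. The peak from 11619112 to 11620954 (1843 bp, combined q = 1.02e-25) was at rank 3 on II in replicate 1 (q = 7.22e-21) and at rank 42 in replicate 2 (q = 2.03e-05). The right-arm peak from 12981867 to 12982324 (458 bp, combined q = 4.02e-23) was the reverse, at rank 23 in replicate 1 (q = 2.56e-08) and rank 3 in replicate 2 (q = 4.82e-15). The tenth, from 10541924 to 10545666 (3743 bp, combined q = 6.08e-23), is the widest on II and met 2 peaks of replicate 2. Of the 10, 7 lie in the centre, 2 in the right arm and 1 in the left arm, and all 10 are also the 10 strongest of II with no condition on the replicates.

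Peaks were densest in the central domain of II and sparsest in the left arm. The left arm is taken here as midpoints under 4.879 Mb and the right arm as midpoints over 12.020 Mb. The centre held 213 combined peaks (65.1%, 59.7 to 70.3%) in 46.8% of the length up to the last peak. The left arm held 49 (15.0%, 11.3 to 19.3%) in 32.0% of that length, and the right arm 65 (19.9%, 15.7 to 24.6%) in 21.3%. This came to 29.8 peaks per Mb in the centre, 10.0 in the left arm and 20.0 in the right arm.

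Both replicates gave the same order of domains. Replicate 1 had 17.2 peaks per Mb in the centre, 5.53 in the left arm and 12.6 in the right arm, from 123, 27 and 41 peaks. Replicate 2 had 14.4, 4.10 and 8.94, from 103, 20 and 29 peaks. The left arm thus had 0.337 of the density of the centre by the combined peaks, 0.321 by those of replicate 1 and 0.284 by those of replicate 2. For the right arm these ratios were 0.672, 0.734 and 0.620.

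**Figure D1:**
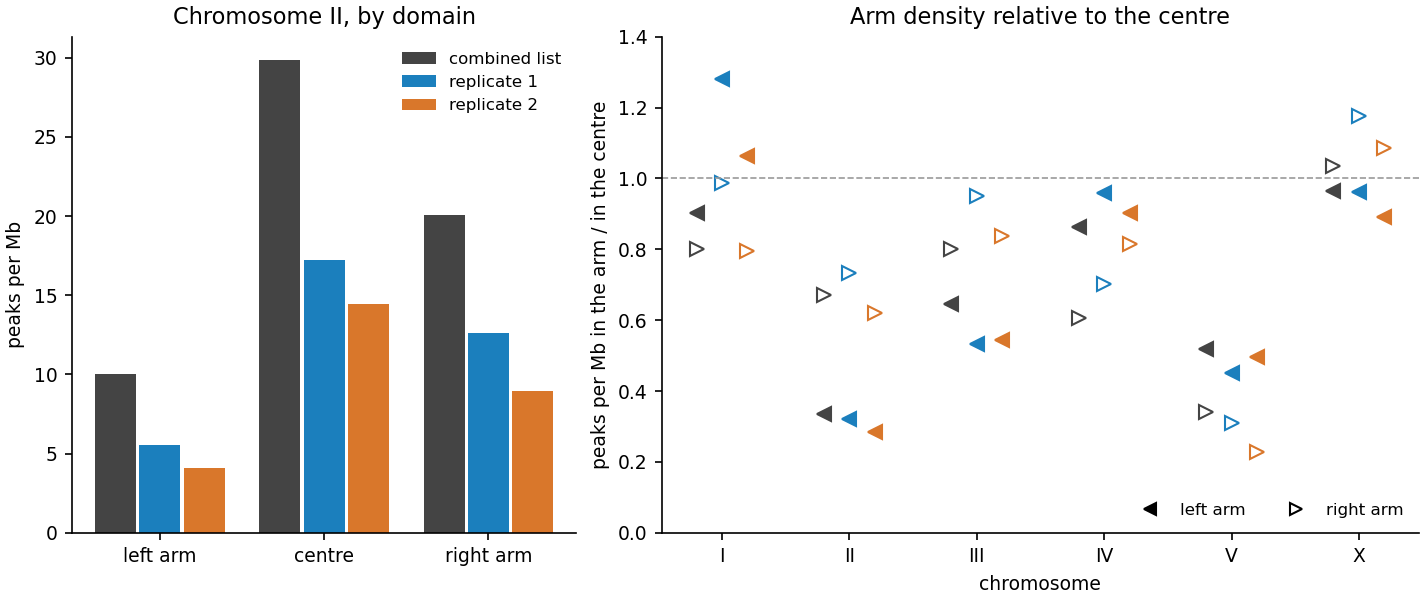
Left, peaks per Mb in the left arm, centre and right arm of chromosome II (bars, 1 per list). Right, the density of each arm divided by that of the centre for the 6 chromosomes (filled triangles left arm, open triangles right arm, colours as on the left, dashed line at equal density); on II the left-arm ratio lies between 0.284 and 0.337 in the 3 lists, below the right-arm ratio of 0.620 to 0.734.

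Compared with the other chromosomes, with arms set at the published limits of their own recombination domains, II had the lowest left-arm ratio of the 6 in each list. The next lowest was that of V, at 0.519 by the combined peaks, 0.452 by replicate 1 and 0.497 by replicate 2. The ratio depends on the centre too, and the centre of II was the densest of the 6 in each list. In combined peaks per Mb, the left arm had 10.0 on II, 11.9 on I, 12.9 on III and 11.7 on V. In the same order these were 5.53, 5.70, 5.64 and 5.43 in replicate 1, and 4.10, 4.15, 4.03 and 5.09 in replicate 2. The left arms of IV and X were denser than these in each list. V was the reverse of II in its sides: its right arm was the sparser one, with 0.340 of the density of its centre in the combined list. In replicates 1 and 2 this ratio was 0.310 and 0.227. Both were below the left-arm ratio of II in the same lists, 0.321 and 0.284. On X the arms were about as dense as the centre, with ratios of 0.966 and 1.03. The centre of II held 65.1% of its combined peaks in 46.8% of its length. These values were 70.2% in 51.1% on V, 60.3% in 52.5% on IV, 56.4% in 48.2% on III, 52.2% in 48.2% on I and 35.9% in 35.9% on X.

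The shares of peaks that met both replicates had overlapping intervals in the 3 domains of II. They were 13 of 49 in the left arm (26.5%, 14.9 to 41.1%), 70 of 213 in the centre (32.9%, 26.6 to 39.6%) and 22 of 65 in the right arm (33.8%, 22.6 to 46.6%). Peaks of the left arm were narrower, with a median of 352 bp against 423 bp in the centre and 453 bp in the right arm, and none of the 49 was wider than 1 kb. The median q-value was 0.000406 in the left arm, 7.42e-05 in the centre and 1.61e-05 in the right arm of the combined list. Replicate 1 had the same order, with 0.000473, 0.000450 and 0.000125. In replicate 2 the left arm again had the largest median (0.00236), and the centre (0.000235) had a smaller one than the right arm (0.000397).

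Peak numbers were higher on the central side of both boundaries, in each list. The megabase before the left boundary held 16 combined peaks and the megabase after it 28 (7 and 18 in replicate 1, 8 and 13 in replicate 2). The megabase before the right boundary held 50 and the one after it 20 (27 and 11 in replicate 1, 17 and 9 in replicate 2). That megabase before the right boundary is nearly the window from 11 to 12 Mb, the fullest of II, so the 2 observations are not separate. The peaks next to the left boundary were 4856230 to 4856519 (q = 0.00849, met in neither replicate) and 4941474 to 4941972 (q = 0.000883, met in replicate 1 only). Those next to the right boundary were 12006680 to 12006978 (q = 0.00633) and 12102344 to 12102617 (q = 0.00728), both met in neither replicate. Their midpoints lie 13.2 to 82.5 kb from the boundary, and how exact the boundaries are was not examined.

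The megabase from 11 to 12 Mb held the most peaks in every list, and windows of the left arm held the fewest among complete ones. In the combined list that window had 50 peaks (15.3% of II, 11.6 to 19.7%), against a median of 22 in the other 15 windows of II and a median of 17 in the 86 windows of the other chromosomes that held a peak. The fullest of those 86 windows held 40. The lists of replicates 1 and 2 had 28 and 18 peaks there. The windows next in order were 6 to 7 Mb, with 32 combined peaks (20 in replicate 1 and 16 in replicate 2), and 10 to 11 Mb, with 26 (14 in each replicate).

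The fewest were in the short last window from 15 Mb, with 6 combined peaks (3 in replicate 1 and 2 in replicate 2), and in 3 to 4 Mb, with 7 (4 and 2). The windows 0 to 1 Mb and 1 to 2 Mb tied next with 8 each, at 4 and 6 peaks in replicate 1 and 3 in each in replicate 2. The replicates' counts rose and fell together over the 16 windows, with Pearson's r = 0.901 and Spearman's rho = 0.919. Without the densest window the values were 0.904 and 0.901. Windows share the library and neighbouring peaks, so these are descriptions.

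**Figure D2:**
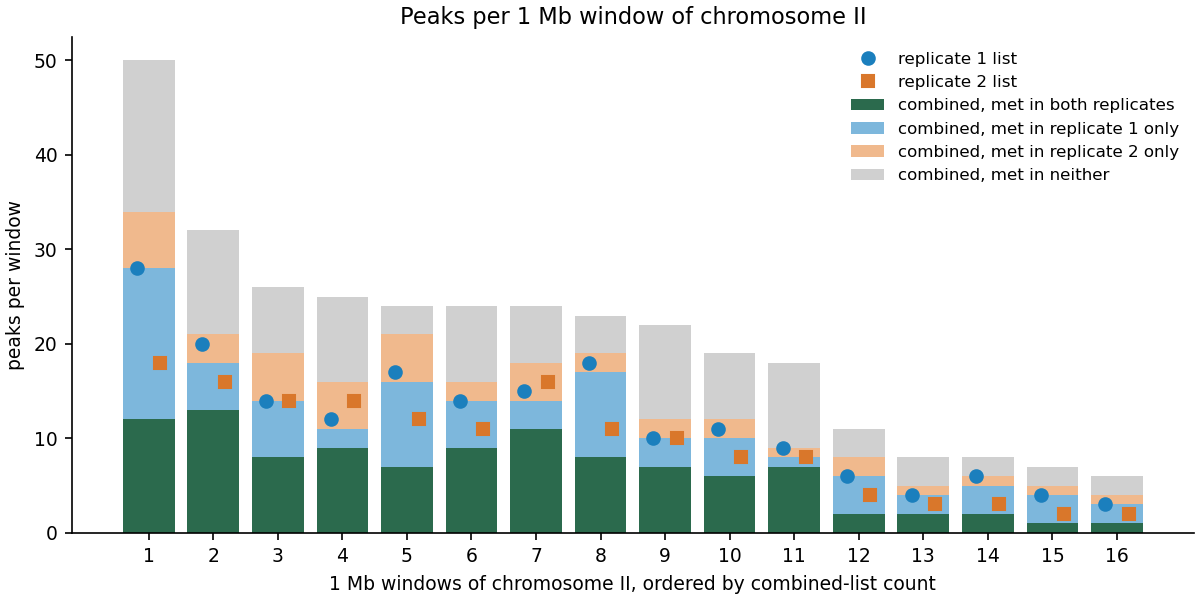
Peaks per 1 Mb window of chromosome II, with the 16 windows ordered by combined-list count. Stacked bars divide the combined peaks by the replicates they met, and points give the counts in the replicates' own lists; the densest window has 50 combined peaks, of which 12 met both replicates, and the second has 32, of which 13 did.

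Among peaks that met both replicates, the window from 11 to 12 Mb was not the fullest. Of its 50 peaks, 12 met both (24.0%, 13.1 to 38.2%), 16 met replicate 1 only, 6 replicate 2 only and 16 neither. In the rest of II 93 of 277 met both (33.6%, 28.0 to 39.5%), and the intervals overlap. Counting only peaks that met both replicates, 6 to 7 Mb came first with 13 and 11 to 12 Mb had 12.

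Within the densest window, peaks were spread over all 10 stretches of 100 kb, with 3 to 8 in each. They formed 33 separate groups when peaks at most 5 kb apart were joined, and the largest of these held 4 peaks. The stretch from 11.3 to 11.4 Mb had 5 combined peaks and 0 in either replicate. By contrast, 11.0 to 11.1 Mb had 8 combined, 5 replicate 1 and 3 replicate 2 peaks, and 11.8 to 11.9 Mb had 6, 4 and 4.

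Long stretches without a peak lay mostly in the left arm. The median distance between neighbouring combined peaks on II was 20.4 kb, against 23.7 kb on the other chromosomes. Of the 5 longest stretches, which were singled out after their values were seen, 4 were in the left arm. They span 1323640 to 2223353 (899.7 kb), 574403 to 1188208 (613.8 kb), 3521751 to 3951388 (429.6 kb) and 2442646 to 2800803 (358.2 kb). The fifth, from 9286047 to 9560939 (274.9 kb), is in the centre. Neither replicate had a peak in any of the 5.

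Peaks of II often had a close neighbour, as did peaks of the whole combined list. Peaks at most 5 kb apart were joined into runs, counting the bases between the end of a peak and the start of the next. By this rule 158 of the 327 peaks (48.3%, 42.8 to 53.9%) were in 56 runs of 2 or more, against 46.0% of all combined peaks, and the other 169 were single. In replicate 1 the share of II peaks in runs was 44.0%, against 38.1% of all its peaks, and in replicate 2 it was 39.5%, against 39.1%. Most runs were short: 40 had 2 peaks, 5 had 3 and 6 had 4. The remaining 5 had 5 or more peaks and together held 39 peaks, or 11.9% of II, against 6.60% of all combined peaks and 2.65 to 9.40% on each of the other chromosomes. In number of such runs II was close to III, V and X, which had 4 each, while I and IV had 1 each. In the replicates' own lists, 11.0% of replicate 1 peaks and 12.5% of replicate 2 peaks on II were in runs of 5 or more, against 4.62% and 4.46% of all peaks of these lists and at most 6.82% and 4.23% on any other chromosome.

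Peaks in runs had a larger median width than single ones, and a larger share of them met both replicates, with overlapping intervals. The median width was 475.5 bp in runs and 386 bp for single peaks. Both replicates were met by 60 of 158 peaks in runs (38.0%, 30.4 to 46.0%) and by 45 of 169 single peaks (26.6%, 20.1 to 34.0%). In the 5 long runs 20 of 39 peaks did (51.3%). Of the 56 runs, 34 had at least 1 member that met both replicates, 5 had only such members, and 4 had only members that met neither. The 10 strongest peaks of II included 7 in runs, 4 of them in the long ones.

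The longest run had 11 peaks in 17.7 kb, from 6820927 to 6838630, with 50.7% of its length called. Its first peak is the strongest of II. Peaks 5 and 6, 6.36 and 7.77 kb from the start of the run, had combined q-values of 1.13e-17 and 2.16e-15. In replicate 1 these were 1.45e-07 and 8.73e-07, and in replicate 2 they were 1.73e-10 and 6.10e-08. The tenth is 2370 bp wide (6835023 to 6837392, combined q = 1.19e-16) and met 2 replicate 1 peaks and 1 replicate 2 peak. Of the 11 members 6 met both replicates, 1 met replicate 1 only, 1 replicate 2 only and 3 neither. Replicate 1 had 8 peaks here in a single run and replicate 2 had 7, of which the first 6 formed a run.

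The second longest had 9 peaks in 20.0 kb, from 7799622 to 7819661, and was less filled, with 23.5% called. The strong members were on the left: peaks 2 and 3 had combined q-values of 2.79e-30 and 2.66e-18, and for peak 3 the replicates had 1.19e-07 and 1.77e-10. Peaks 4 and 5, 592 and 829 bp wide, also met both replicates, with combined q-values of 1.64e-09 and 7.69e-08. The last 3 peaks, 269 to 280 bp wide with q-values from 0.00332 to 0.00851, met neither replicate. Replicate 2 had a run of 6 peaks here and replicate 1 had 4 peaks.

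The run of 8 peaks from 10541924 to 10563855 was the only one of the 5 long runs with no member that met neither replicate. It covers 21.9 kb, begins with the widest peak of II, and has 47.3% of its length called. All 8 members met replicate 1, and 6 met replicate 2 as well. Its last peak, 10563328 to 10563855, had q-values of 4.48e-15 (combined), 5.99e-07 (replicate 1) and 8.08e-11 (replicate 2). The seventh, 1443 bp wide, had 2.88e-12, 0.000350 and 9.17e-09. Replicate 1 had 8 peaks in this interval and replicate 2 had 7, each in 1 run, and 7 of the 7 replicate 2 peaks met replicate 1.

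The right arm had 1 long run, with 6 peaks in 12.1 kb from 12980382 to 12992495. Its 3 strong members were the first (833 bp, combined q = 1.57e-18), the second, described among the strongest peaks, and the fifth (1309 bp, combined q = 8.00e-22). The fifth had nearly the same q-value in both replicates, 3.66e-10 and 4.19e-10. Of the other 3, 1 met replicate 1 only, and the fourth (12987902 to 12988566) and sixth (12992226 to 12992495) met neither replicate. Replicate 1 had 5 peaks in this interval and replicate 2 had 3.

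The smallest of the long runs lies just inside the left boundary of the centre, with 5 peaks from 4976890 to 4986514. It rests on a single strong member, 4981806 to 4982480 (675 bp), with a combined q-value of 7.93e-20, against 1.91e-06 and 9.51e-13 in replicates 1 and 2. For the other 4 the combined q-value lay between 6.73e-05 and 0.00886. Of these, 1 met replicate 1 only, 1 met replicate 2 only and 2 met neither. In the replicates' own lists this interval held 2 peaks each.

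**Figure D3:**
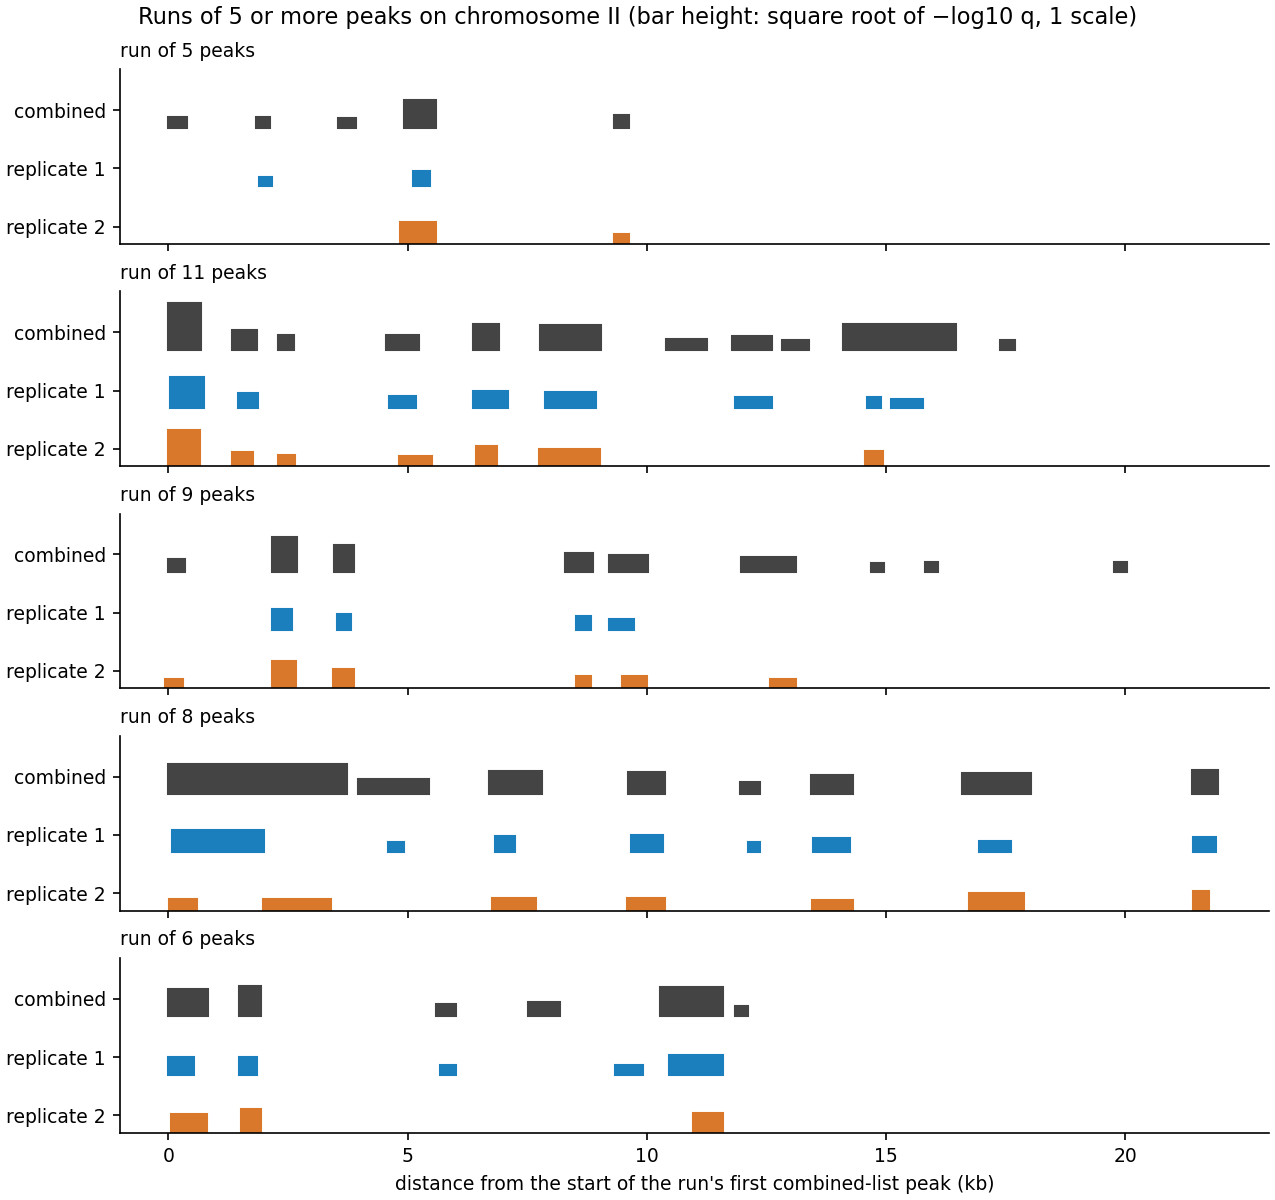
The 5 runs of 5 or more combined-list peaks on chromosome II, in order along the chromosome, drawn to scale from the start of each run's first peak (kb). Bars are peaks of the combined, replicate 1 and replicate 2 lists, and their height is the square root of −log10 q on 1 scale for all. In the run of 8 both replicates have peaks at its first and last members, and 2 members between them met replicate 1 only. The last 3 peaks of the run of 9 have no counterpart.

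Runs of 4 peaks could differ between the replicates. The one from 14702347 to 14706768, named after its values were seen, had 4 members that all met replicate 1, which had 4 peaks there, and 0 that met replicate 2. The run from 8409480 to 8417417, named in the same way, had 4 members that all met replicate 2 and 2 that also met replicate 1.

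The widths of II peaks were like those of the other chromosomes, and the widest were called in both replicates. The median was 413 bp in the combined list (quartiles 319.5 and 587 bp), against 407 bp on the other chromosomes, and 413 and 400 bp in replicates 1 and 2. Peaks met in both replicates had a median width of 549 bp, those met in replicate 1 only 425 bp, those met in replicate 2 only 368 bp and those met in neither 326.5 bp. Of the 21 peaks wider than 1 kb, 16 met both replicates, 3 replicate 1 only, 2 replicate 2 only and 0 neither. In all, 19 of the 21 lay in the centre and 17 were in runs. Width and −log10 q rose together over the 327 peaks, with Spearman's rho = 0.587, and over the 105 that met both, with rho = 0.344. A longer region holds more reads, so both values share the same reads, and these are descriptions.

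The 5 widest peaks lay in the centre, and no single replicate peak spanned any of them in full. The widest, at 3743 bp, had a 1910 bp peak on its left in replicate 1 (q = 3.86e-13). In replicate 2 it met 2 peaks, and the one with the larger overlap was 1429 bp on its right (q = 0.000548). The second widest, from 9059803 to 9062614 (2812 bp, combined q = 1.70e-19), met 2 peaks in each replicate. The third, from 9283592 to 9286046 (2455 bp, combined q = 1.44e-11), had 563 bp called in replicate 1 (q = 0.00354) and 1111 bp in replicate 2 (q = 4.44e-05). Next in width are the tenth member of the longest run and the second strongest peak. In total 6 combined peaks of II met 2 or more peaks of a replicate, against 25 on the other chromosomes. Peaks met in both replicates numbered 105 on II and 450 on the others.

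**Figure D4:**
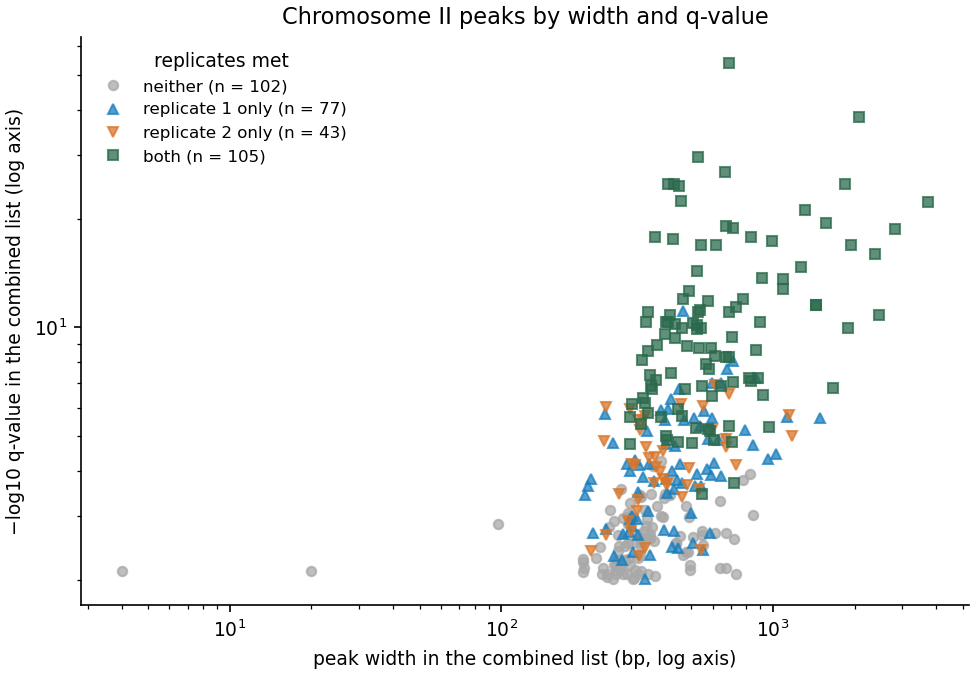
Width (bp) and −log10 q-value of the 327 combined-list peaks on chromosome II, both on log axes, 1 point per peak, with the marker giving the replicates met. By median −log10 q, peaks met in both replicates (n = 105) lie highest and those met in neither (n = 102) lowest, with overlap between the classes. None of those met in neither is wider than 843 bp.

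A few calls were much narrower than the rest. Only 3 combined peaks of II were under 200 bp: 14451447 to 14451450 (4 bp, q = 0.00768), 4396345 to 4396364 (20 bp, q = 0.00768) and 10707696 to 10707792 (97 bp, q = 0.00140). They were named after their values were seen, and all 3 met neither replicate. On the other chromosomes 25 of 1521 combined peaks were under 200 bp. The replicate lists had 0 such peaks on II, where their narrowest peaks were 200 bp.

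Where both replicates called a region on II, the stronger calls of one tended to be the stronger of the other. Joining each replicate 1 peak with the replicate 2 peak it shared most bases with, in both directions, gave 106 pairs. Over these pairs the rank correlation of the q-values (Spearman's rho) was 0.634 and the linear one of −log10 q (Pearson's r) was 0.682. On the other chromosomes 452 pairs gave 0.545 and 0.812. Without the strongest 5% of pairs, 101 pairs on II gave 0.594 and 0.598, and 429 pairs elsewhere gave 0.484 and 0.499, so the order of the linear correlation turned with the strongest pairs. These are descriptions across peaks of 2 libraries. Replicate 1 had the smaller q-value in 66 of the 106 pairs on II (62.3%), and in 56.9% of the pairs elsewhere, with depths unknown.

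Edges of paired peaks were close but seldom the same. The starts differed by a median of 55 bp and the ends by 58.5 bp on II, against 47.5 and 49 bp elsewhere. Starts were within 50 bp of each other in 51 of 106 pairs and ends in 47, and they were equal to the base in 2 and 3 pairs. Midpoints were within 200 bp in 96 pairs. The median width in these pairs was 438 bp in replicate 1 and 437 bp in replicate 2.

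**Figure D5:**
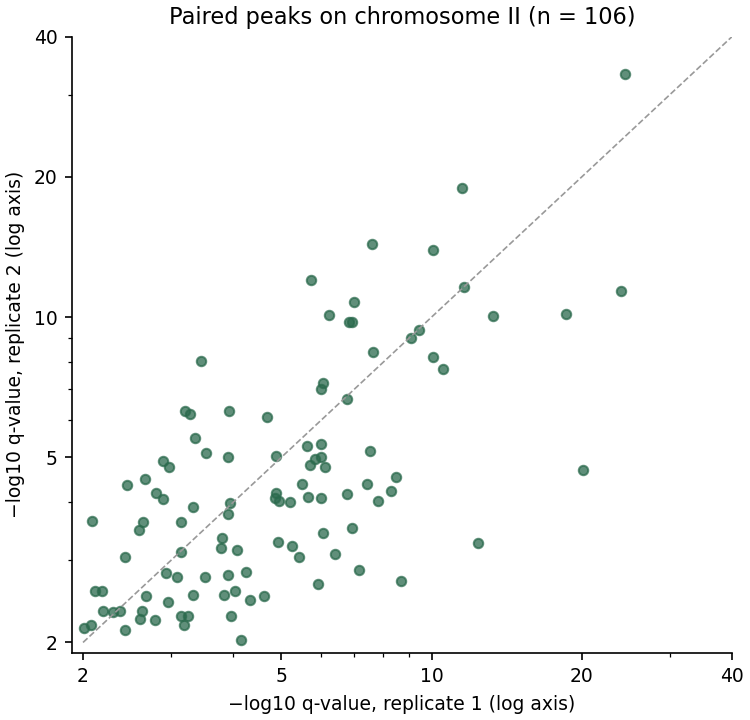
The −log10 q-values of 106 paired peaks on chromosome II in replicate 1 (x) and replicate 2 (y), both on log axes, with a dashed line at equal values. The point at the upper right is the strongest peak of II, and 66 of the pairs lie to the right of the line.

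The combined list gave smaller q-values than the replicates for peaks of II met in both, and it took in most of the replicates' peaks. For all 105 peaks of II that met both replicates, the combined q-value was smaller than either replicate's, taking from each replicate the peak with the most shared bases. On the other chromosomes this held for 444 of 450. For peaks of II that met 1 replicate only it did not always hold. The last peak of II, for instance, had q = 9.01e-05 in the combined list and 1.75e-05 in replicate 1. The median width of the 105 on II was 549 bp in the combined list, against 443 and 437 bp in replicates 1 and 2. Of the 105, 89 were at least as wide as both replicate peaks, against 369 of 450 on the other chromosomes. On II the list left out 6 of 191 replicate 1 peaks (3.14%) and 1 of 152 replicate 2 peaks (0.658%), against 4.12% and 0.474% on the other chromosomes.

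The replicate peaks left out on II were weak, and 0 of the 7 met the other replicate. The strongest was 1321422 to 1321873 in replicate 1 (452 bp, q = 0.00109), 529 bp from the nearest combined peak. The next were 14136277 to 14136672 (q = 0.00250) and 12989709 to 12990294 (q = 0.00340), also in replicate 1. The latter lies inside the long run of the right arm, 371 bp from a combined peak. The other 4 had q-values from 0.00340 to 0.00864.

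The strongest combined peaks met in neither replicate were weaker than most peaks met in both. They are 12987902 to 12988566 (665 bp, q = 1.16e-05), 15213698 to 15214085 (388 bp, q = 5.46e-05) and 8091503 to 8091865 (363 bp, q = 7.42e-05). The first ranked 132 among the 327 peaks of II. All 102 peaks met in neither replicate had q-values between 1.16e-05 and 0.00989 in the combined list.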

How the data were processed

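The files hold peak lists in GFF3 format. Peaks were called with PeakSeq on WormBase WS220, per the file headers, and the only deposited value of each peak is the authors' q-value. Header comments record positions moved from an earlier build. They list 3 peaks on II in the combined list and 2 in each replicate. The starts of these moved by 8 to 19 bp and their widths changed by 1 bp, and the counts are of listed peaks alone. Not given in the sources used here: that build, the aligner, and how the combined list was made. Read depth is unknown.

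Peaks were placed by midpoint, joined into runs at gaps of at most 5 kb, counted in windows of 1 Mb and intersected between lists by at least 1 bp. The arm limits of chromosomes other than II were those published by Rockman and Kruglyak, entered as background knowledge. Density by domain used the length up to the last combined peak. Density by chromosome used each list's own span from first to last peak. Shares have exact (Clopper-Pearson) 95% intervals. No test was run.

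Regions named are the 10 strongest peaks that met both replicates, the 5 widest, runs of 5 or more, the 3 strongest met in neither replicate, the 3 strongest replicate peaks left out, the first and last peak, those next to each domain boundary, and the 3 fullest and 3 emptiest windows. Others are said to be named after their values were seen. The members, lists and alternatives were chosen with earlier results of these data known. Alternatives covered the overlap rule, stricter lists, run gap, boundaries, windows and leaving out each replicate. Procedures were tested on simulated data. Python 3.11.15, NumPy 2.4.6, pandas 2.3.3, SciPy 1.17.1 and matplotlib 3.10.9 were used.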

Additional observations from a re-analysis of the deposited data

How the results depend on the processing

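Over 8 results and 39 alternatives, 24 values stayed within the margin set (the exact 95% interval of a share, 1 SD between the replicate medians for width, 0.1 for rho) and 15 moved. For domains, windows, runs and widths, leaving out a replicate meant keeping only the combined peaks that met the other one. These were 148 peaks without replicate 1 and 182 without replicate 2, and the combined list was not remade. The shares by domain stayed within their intervals in stricter lists, with each run counted once and without either replicate (62.2 to 68.2% in the centre, 64.8 to 68.2% without a replicate). With boundaries that cut the span into 3 equal parts the order turned, and the centre held 38.2% and the right part 43.4%. The right part then takes in the densest window and other peaks counted in the centre above. The share met in both replicates was 26.6% with midpoints within 200 bp and 57.9% in the stronger 50% of the combined list, and 45.3 to 55.7% with only 1 replicate required, a looser rule by construction. The share in runs was 35.5% at gaps of 2 kb, 57.5% at 10 kb, 34.3% among peaks met in both replicates and 37.8 to 40.7% without a replicate, where fewer peaks remain. Median width was 527 bp in the stronger 50%, 549 bp for peaks met in both and 506.5 to 515.5 bp without a replicate. The sets without a replicate hold no peaks met in neither replicate, whose median width was 326.5 bp. In the replicates' own lists the medians on II were 413 and 400 bp. Beyond this make-up of the sets, no cause was tested. The fullest window held 12.4% of the peaks met in both replicates and was then 6 to 7 Mb. No paired analysis was possible because only ChIP peak lists were used, so no Input value pairs with them. Unknown depth limits comparison of list lengths.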
